A study of Mus musculus with 4 samples.

Results

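The clustered protocadherin genes were taken as every gene row whose symbol names a member of the alpha, beta or gamma cluster, by symbol alone and without reference to its level. The rule found 58 of the 20299 genes listed: 14 alpha, 22 beta and 22 gamma members, all on the plus strand of chromosome 18 (mm9) between positions 37089938 and 38001526. Their RNA was measured in 4 strand-specific libraries from mouse fetal gonads at 15.5 days post coitum (dpc), 1 each from male germ cells, female germ cells, male somatic cells and female somatic cells. All fetuses came from CF1 females mated with TgOG2 males, and carried no other treatment. The TgOG2 transgene places a green fluorescent protein (GFP) under the promoter of Oct4 (Pou5f1), a gene active in germ cells. Germ cells were sorted as GFP-positive and somatic cells as GFP-negative, so the somatic fraction holds every gonadal cell without the reporter, including blood and vessel cells. The labels do not say how many animals were pooled or whether the libraries came from separate animals, and p-values therefore measure only the spread between these libraries. The design text gives the purpose as a map of transcription in the 4 fractions.

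Clustered protocadherins are cell-surface proteins of the cadherin superfamily. Their extracellular parts bind identical protocadherins on a neighbouring cell, and they are best known in neurons, where each cell uses a small combination of members as a surface identity. Each alpha and gamma member has its own promoter and its own large first exon, which is spliced to constant exons shared by its whole cluster, whereas beta members are single-exon genes with no shared constant exon. In neurons the choice of promoter depends on the insulator protein CTCF, on cohesin and on promoter DNA methylation, while the last members of the alpha and gamma clusters (the C-type members) are used more uniformly from cell to cell.

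Levels are given as scaled signal per 1000000 (SPM), which does not correct for gene length, and as SPM per kb where genes are compared with each other. Where a pair of values is given for a cell type, the male library comes first. Estimated depth, in units of 1000000 fragments, was 24.9 and 17.5 for germ cells and 17.6 and 24.2 for somatic cells. A floor of 3 fragments was worth 0.113 to 0.181 SPM. Markers of the gonadal soma (Wt1, Gata4, Nr5a1, Pdgfra, Col1a2 and Nr2f2) summed to 8814 and 3302 SPM in somatic cells and to 131 and 33.9 SPM in germ cells. The germ cell markers Pou5f1, Dazl, Ddx4 and Mael summed to 2580 and 2145 SPM in germ cells and to 18.9 and 4.42 SPM in somatic cells.

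The structure of the clusters set which members could be measured apart. The 22 beta members lay between 37424651 and 37681073, and none of their 231 pairs overlapped. The 14 alpha members (37089938 to 37347314) ended within 3 bases of each other and the 22 gamma members (37821598 to 38001526) within 9 bases, so all 91 alpha pairs and all 231 gamma pairs overlapped. Among the 57 members with a GENCODE transcript, a median of 55.1% of the 100-base words of an alpha member and 44.1% of those of a gamma member also occurred in other members, against 0.170% for beta. Of the 22 beta members, 21 shared under 5%, and Pcdhb21 shared 7.73%. Beta members are therefore described first and apart, and counts over alpha or over gamma members are not counts of separate observations.

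Beta members were present in both somatic libraries and nearly absent from both germ libraries. The 22 members summed to 190.0 and 147 SPM in somatic cells and to 4.43 and 2.82 SPM in germ cells. In each somatic library 21 of the 22 members stood above the floor, against 11 in male germ cells and 7 in female germ cells, and 5 and 12 members were listed at 0 in the male and female germ libraries. The median member stood at 5.08 and 4.32 SPM in somatic cells and at 0.123 and 0 SPM in germ cells. Fewer cells that express a gene and less RNA per cell cannot be told apart in these bulk samples.

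The members with the highest somatic levels per length came from the end of the beta cluster nearest gamma. Pcdhb17 (37644674 to 37647944) stood at 27.1 and 18.7 SPM in somatic cells and at 0.146 and 0 SPM in germ cells. Pcdhb19 stood at 27.2 and 18.4 SPM in somatic cells and at 0.302 and 0.217 SPM in germ cells. Pcdhb22, the last member of the cluster, stood at 22.4 and 18.3 SPM against 0.137 and 0.414 SPM. All 3 were high in both somatic libraries, while their germ values rested on an estimated 0 to 8.04 fragments. Pcdhb16, the member with the most signal in female somatic cells before division by length, stood at 14.9 and 20.9 SPM against 0.229 and 0.414 SPM in germ cells. Pcdhb20 stood at 9.27 and 7.34 SPM in somatic cells and was listed at 0 in both germ libraries. Pcdhb18 stood at 11.7 and 9.87 SPM in somatic cells against 0.411 and 0.296 SPM in germ cells, and Pcdhb21 at 14.4 and 8.70 SPM against 0.0731 and 0.601 SPM. In the middle of the cluster, Pcdhb11 stood at 11.3 and 6.67 SPM in somatic cells and at 0.192 and 0 SPM in germ cells. Pcdhb14 (7.89 and 5.86 SPM), Pcdhb7 (6.61 and 4.76 SPM), Pcdhb13 (4.35 and 3.10 SPM) and Pcdhb4 (3.13 and 2.68 SPM) had lower somatic levels and none exceeded 0.192 SPM in a germ library. At the other end of the cluster, Pcdhb2 stood at 1.95 and 0.778 SPM in somatic cells and at 0.302 and 0 SPM in germ cells. Pcdhb10, in the middle of the cluster, stood at 1.56 and 1.27 SPM in somatic cells and was listed at 0 in both germ libraries.

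**Figure D1:**
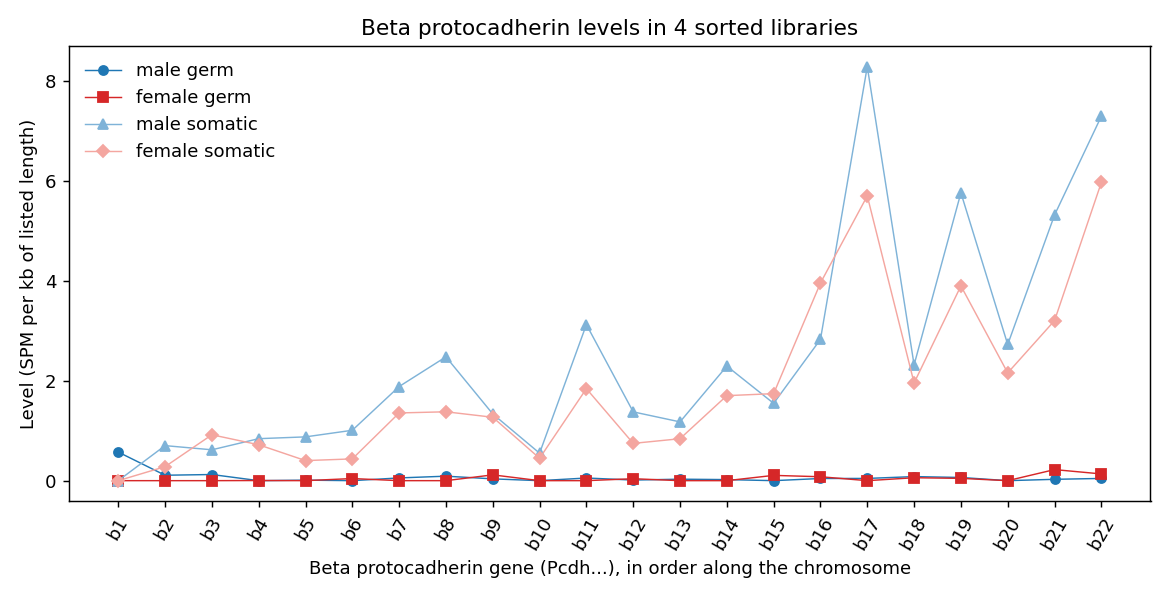
Level of each of the 22 beta members in SPM per kb of listed length (vertical axis) by order along the chromosome (horizontal axis), with 1 marker per library, joined by lines for each library. The somatic libraries reach 8.30 (Pcdhb17, male) and 5.98 SPM per kb (Pcdhb22, female), and the highest germ value is that of Pcdhb1 at 0.573 SPM per kb in male germ cells.

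Per length, somatic beta levels were higher on the gamma side of the cluster than on the alpha side. In the male somatic library the first 11 members had a median of 0.877 SPM per kb and the last 11 a median of 2.73, and in the female somatic library these medians were 0.719 and 2.16 SPM per kb. Spearman's rho between order and SPM per kb was 0.83 in male and 0.87 in female somatic cells over the 22 members, a description of genes that share a library. The order of the members by level was close to the same in both somatic libraries (rho 0.93 between them). Pcdhb17 led in male somatic cells at 8.30 SPM per kb and Pcdhb22 in female somatic cells at 5.98. In the germ libraries rho between order and level was -0.21 (male) and 0.50 (female), where most members lay at or under the floor.

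Pcdhb1, the first beta member (37424651 to 37427108), had a pattern of its own. It stood at 1.41 SPM in male germ cells, on an estimated 37.5 fragments, whereas the other 3 libraries listed it at 0. Against the floor of 3 fragments this was at least 7.85-fold above the female germ library and at least 7.80-fold above the male somatic library. Pcdhb1 alone made up 31.8% of the beta signal of male germ cells and was the only beta member there at 1 SPM or more. Per length it stood at 0.573 SPM per kb there, followed by Pcdhb3 at 0.123 SPM per kb, and in female germ cells Pcdhb21 was highest at 0.222 SPM per kb.

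Somatic and germ cells of the same sex were compared library against library, which leaves the ratios without a replicate check, and their exact 95% intervals cover counting error alone. Summed beta signal was 42.9-fold higher in male somatic than in male germ cells (95% interval 35.7 to 52.0), or 62.8-fold (50.1 to 78.9) without Pcdhb1. In females it was 52.3-fold higher in somatic cells (39.4 to 71.5). Members were called where the ratio was at least 4-fold and the higher library at 1 SPM or more. By this rule 21 beta members were lower in male germ than in male somatic cells, against 17.9% of all genes compared, and 1 (Pcdhb1) was higher, against 16.5%. In females 20 beta members were lower in germ cells, against 24.8% of all genes, and 0 were higher, against 14.3%. Pcdhb1 and Pcdhb2, under 1 SPM in both female libraries, could not be called in females. Apart from Pcdhb1, no beta member reached 1 SPM in a germ library. The members called lower could therefore be called only through their somatic levels, and their counts give no support of their own. The median log2 difference of the beta members was -3.21 in males and -2.95 in females, beside -0.07 for all genes in each sex.

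Pcdhb17 was 185-fold higher in male somatic than in male germ cells (70.1 to 666) and at least 104-fold higher in female somatic than in female germ cells. Pcdhb19 was 90.1-fold higher (45.6 to 211) in males and 84.8-fold higher (29.9 to 284) in females. For Pcdhb22 the somatic level was 163-fold (57.8 to 550.2) and 44.3-fold (21.1 to 109.5) the germ level, and for Pcdhb16 it was 65.3-fold (30.0 to 182) and 50.4-fold (24.0 to 125), in males and females. These intervals are wide because the germ values rest on 0 to 8.04 fragments. The smallest beta ratio in males among members above 0 in both libraries was that of Pcdhb3, at 5.02-fold (2.67 to 10.9).

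Low germ levels were also set beside the somatic markers. Germ signal as a share of somatic signal of the same sex was 2.33% in males (1.59% without Pcdhb1) and 1.91% in females for summed beta members. For the 6 summed soma markers it was 1.48% in males, with single markers between 0.782% and 3.12%, and 1.03% in females, between 0.560% and 5.68%. The beta sum thus lay within the range of the single soma markers in both sexes. The part of carried-over somatic RNA in the germ values was not tested.

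**Figure D2:**
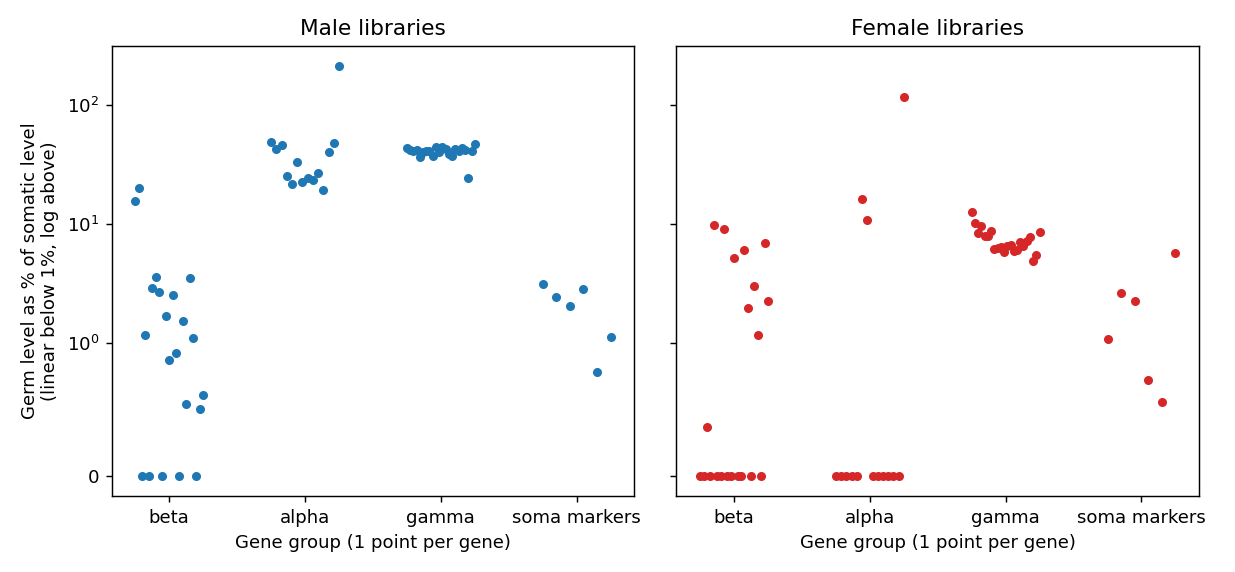
Germ level as a percentage of the somatic level of the same sex (vertical axis, logarithmic above 1% and linear below it), with 1 point per gene for the members with somatic signal and for the 6 soma markers, male libraries left and female libraries right. Gamma points lie between 24.2% and 47.1% in males and between 4.90% and 12.7% in females, while most beta points lie among or below the soma markers and Pcdhac2 stands above the somatic level in both sexes.

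With the sexes taken as the 2 samples of each cell type, both somatic libraries stood above both germ libraries for 21 of 22 beta members, the exception being Pcdhb1, against 29.0% of all genes with at least 1 library above the floor. Among the 21 members with under 5% shared words the count was 20. For 0 members did both germ libraries stand above both somatic libraries, against 28.0% of all genes. In the fit across all genes with limma, on log2(SPM + 0.5) with Benjamini-Hochberg adjustment, 12 of the 20 beta members tested fell in germ cells at an adjusted p under 0.05 and 0 rose. The shares over all genes tested were 5.56% for a fall and 2.50% for a rise, and at an unadjusted p under 0.05 all 20 beta members were lower in germ cells. Those 20 entered the test only through their somatic levels, so they had to differ and the count gives no support of its own. The 12 were Pcdhb4, Pcdhb7, Pcdhb11, Pcdhb13, Pcdhb14 and Pcdhb16 to Pcdhb22.

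Pcdhb17 had the largest difference of the beta members tested, with a log2 difference, germ minus somatic, of -5.34 ± 0.67 (SE; 2 libraries a side; limma adjusted p = 0.0336). Pcdhb19 followed at -4.92 ± 0.66 (limma adjusted p = 0.0352), Pcdhb22 at -4.77 ± 0.66 and Pcdhb16 at -4.48 ± 0.66 (limma adjusted p = 0.0354). Of the members that did not pass, Pcdhb15 (-3.01, limma adjusted p = 0.0509) and Pcdhb8 (-3.02, limma adjusted p = 0.0536) lay nearest to the threshold. The 12 passing members had adjusted p-values between 0.0336 and 0.0495. With no filter on low values 0 beta members passed, as did 0 of all 18703 genes tested. There 21 beta members had an unadjusted limma p under 0.05, among 4625 genes. Leaving out a library in turn changed the number passing, for beta members as over all genes. Without either somatic library the members fell under the filter and were not tested.

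Between the sexes the beta members differed little in size. Summed beta signal was 1.29-fold higher in male than in female somatic cells (1.23 to 1.35). The sums under other scalings are given in the closing section. The ratio intervals of the members cover counting error between single libraries alone. They lay above 1 for 13 of the 21 members compared, below 1 for 2 (Pcdhb3 and Pcdhb16) and held 1 for 6. The share of all genes with such intervals was not computed, so these counts are not read as a trait of the members. No beta member reached 4-fold in either direction, against 4.28% of all genes higher and 4.32% lower in male somatic cells. Pcdhb2 had the largest ratio at 2.50 (1.40 to 4.74). Pcdhb6 stood at 2.34 and 1.01 SPM (ratio 2.31, 1.39 to 4.05) and Pcdhb5 at 3.10 and 1.42 SPM (ratio 2.18, 1.40 to 3.43). In the other direction, Pcdhb3 stood at 2.34 and 3.48 SPM (ratio 0.672, 0.451 to 0.996), and Pcdhb16 had a ratio of 0.715 (0.612 to 0.833).

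Between male and female germ cells the summed beta signal differed 1.57-fold (1.11 to 2.26), and 1.07-fold (0.746 to 1.58) without Pcdhb1. Pcdhb1 was the only beta member at 1 SPM or more in either germ library, so no other could be called. It was called higher in male germ cells, against 18.6% of all genes compared, and 0 beta members were called lower, against 9.61%. For 8 of the 22 members both germ libraries lay at or under the floor. Pcdhb21 stood at 0.0731 and 0.601 SPM, giving a ratio of 0.122 (0.0134 to 0.589) on an estimated 1.95 and 10.1 fragments. Pcdhb15 stood at 0 and 0.296 SPM. The interval of Pcdhb22, whose ratio was 0.331, reached from 0.0770 to 1.41. No member of any cluster passed the limma test of a sex difference shared by both cell types, which 0.134% of all genes did, and the lowest limma adjusted p of a member was 0.743. At an unadjusted p under 0.05 there were 11 members, all gamma, against 6.47% of all genes tested. Gamma members share exons, so these are not 11 separate observations.

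For the alpha and gamma clusters, signal in the constant exons counts for every member at once. The listed values showed this directly: 7 of the 14 alpha members had the same listed value of 35 in male germ cells, and the highest gamma member of that library exceeded the lowest by a factor of 1.14. The level of the lowest member of a cluster in a library is an upper limit on the signal that all members share, apart from counting error, and the excess of a member over it is a lower limit on the signal of its own first exon. Both are given below. The excess was chosen as a measure after the files had been seen.

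Alpha members, whose listed lengths lay between 5210 and 5426 bases, had low levels in all 4 libraries. They summed to 16.8 and 8.73 SPM in somatic cells and to 6.42 and 0.631 SPM in germ cells. All 14 stood above the floor in 3 of the libraries, whereas in female germ cells 11 of 14 were listed at 0 and 1 (Pcdhac2) stood above the floor. The highest ordinary alpha members differed between the somatic libraries. Pcdha8 led in male somatic cells, with 2.02 and 0.574 SPM in somatic cells and 0.494 and 0 SPM in germ cells. Pcdha5 came next there, with 2.00 and 0.817 SPM against 0.430 and 0 SPM. Pcdha10 led in female somatic cells, with 1.201 and 1.26 SPM against 0.320 and 0 SPM in germ cells. The ratio of male to female somatic cells was 3.51 (1.91 to 7.38) for Pcdha8, 3.03 (1.48 to 7.16) for Pcdha9, 2.44 (1.38 to 4.57) for Pcdha5 and 0.949 (0.510 to 1.70) for Pcdha10. Its interval, which covers counting error alone, lay above 1 for 7 alpha members and held 1 for the other 7. No share over all genes was computed for this count.

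Pcdhac2, the C-type member at the end of the alpha cluster, was the alpha member that did not have its highest level in somatic cells. It stood at 1.77 and 0.414 SPM in germ cells and at 0.846 and 0.360 SPM in somatic cells. Male germ cells were thus the highest library, 4.28-fold above female germ cells (1.89 to 11.05) and 2.10-fold above male somatic cells (1.13 to 4.12), while the ratio of female germ to female somatic cells was 1.15 (0.369 to 3.51). Its excess over the lowest alpha member was 1.45 SPM (1.03 to 1.99) in male and 0.414 SPM (0.165 to 0.856) in female germ cells. In somatic cells it was 0.148 SPM (0.0239 to 0.477) and 0.136 SPM (0.0321 to 0.375). Only the male germ interval lay clear of the somatic intervals. Pcdhac1, the other alpha C-type member, stood at 0.393 and 0 SPM in germ cells and at 0.817 and 0.331 SPM in somatic cells. Few alpha members reached 1 SPM and could be called by the 4-fold rule. Between male germ and male somatic cells 8 could be called, and 5 were lower in germ cells, against 17.9% of all genes compared. In females 2 could be called and 2 were lower in germ cells, against 24.8%. Apart from Pcdhac2, these members could be called only through their somatic levels, so the counts give no support of their own. Between the germ libraries only Pcdhac2 could be called, and it was higher in male germ cells, against 18.6%. Both somatic libraries stood above both germ libraries for 10 of 14 alpha members, against 29.0% of all genes, the others being Pcdha1, Pcdha3, Pcdhac1 and Pcdhac2. Limma tested only Pcdha7 and Pcdha10, and neither passed (adjusted p between 0.165 and 0.187).

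Gamma members gave by far the most signal of the 3 clusters, with signal in shared exons counted for every member. The lowest gamma member stood at 57.6 and 7.56 SPM in germ cells and at 135 and 115 SPM in somatic cells. This common level was high in both somatic libraries, intermediate in male germ cells and low in female germ cells. The summed excess of all gamma members over it was 59.99 and 40.7 SPM in germ cells and 383 and 304 SPM in somatic cells. Set against the lowest member, the summed excess was 1.04 and 5.38 times its level in germ cells and 2.84 and 2.64 times in somatic cells. Between the 2 germ libraries the common level differed far more than the summed excess did.

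**Figure D3:**
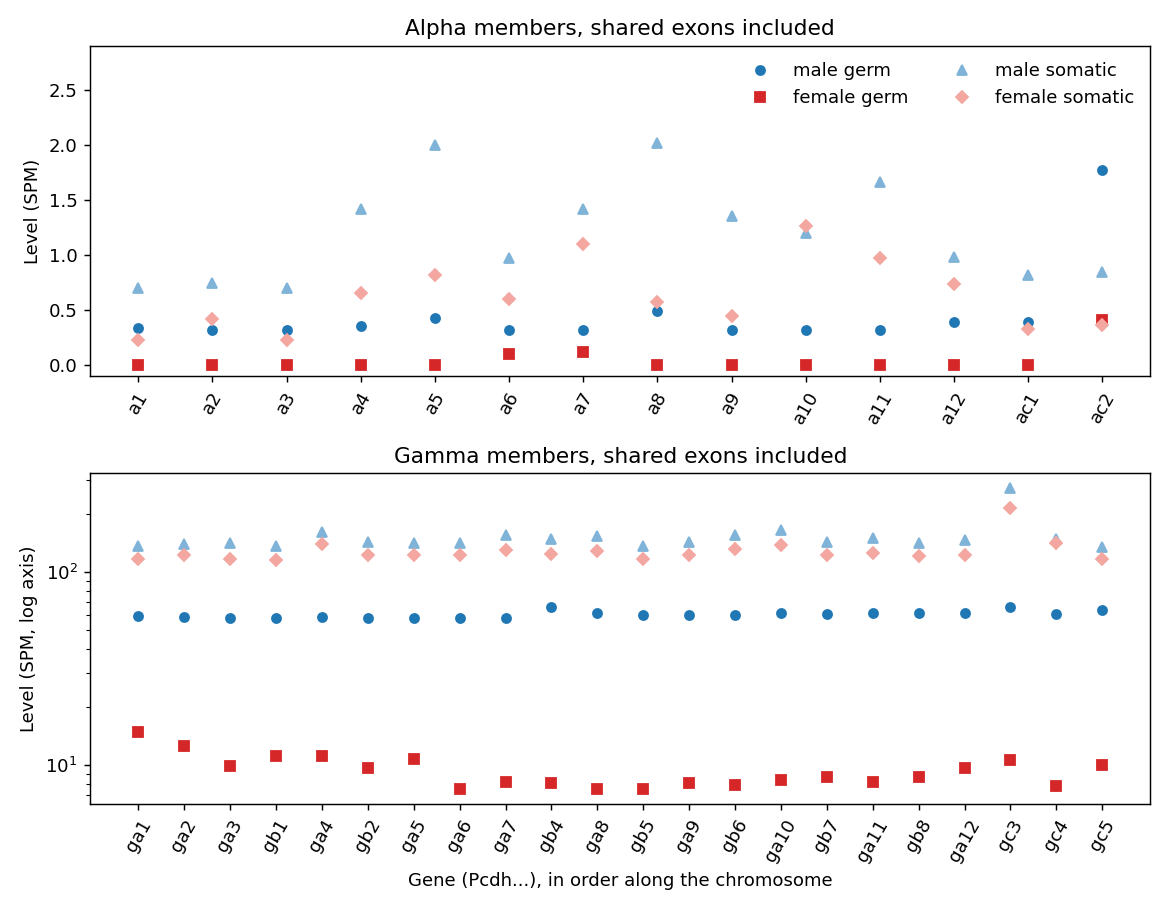
Level in SPM of the 14 alpha members (top, linear axis) and the 22 gamma members (bottom, log axis), shared exons included, by order along the chromosome, with 1 marker per library. Gamma members run close to a common level in each library, with Pcdhgc3 apart at 272 and 216 SPM in the somatic libraries, and Pcdhac2 is the highest alpha marker of male germ cells at 1.77 SPM.

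Pcdhgc3, a gamma C-type member (37966063 to 38001526), stood apart in the somatic libraries. Its level was 272 and 216 SPM in somatic cells and 65.7 and 10.6 SPM in germ cells. Its excess over the lowest gamma member was 137 SPM (132 to 143) and 100.5 SPM (96.6 to 104) in somatic cells, against 8.06 SPM (7.02 to 9.22) and 3.03 SPM (2.25 to 3.98) in germ cells. The next highest somatic excesses were 31.4 SPM for Pcdhga10 in males and 25.7 SPM for Pcdhgc4 in females. Pcdhgc3 was also the highest gamma member per length in both somatic libraries, at 58.0 and 46.0 SPM per kb. Its somatic level was 4.14-fold the germ level in males (3.91 to 4.37) and 20.4-fold in females (17.6 to 23.8).

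The other gamma C-type members differed from Pcdhgc3. Pcdhgc4 stood at 61.0 and 7.76 SPM in germ cells and at 149 and 141 SPM in somatic cells, with excesses of 3.34 and 0.197 SPM in germ and 14.7 and 25.7 SPM in somatic cells. Pcdhgc5 stood at 63.4 and 10.02 SPM in germ cells and at 135 and 118 SPM in somatic cells. It was the lowest gamma member of male somatic cells, while in male germ cells only Pcdhgc3 and Pcdhgb4 exceeded its excess of 5.74 SPM. Pcdhgb4 stood at 65.7 and 8.04 SPM in germ cells and at 148 and 124 SPM in somatic cells, with an excess of 8.05 SPM in male germ cells and 0.483 SPM in female germ cells, and was the highest gamma member per length in male germ cells (14.7 SPM per kb). Pcdhgc3 had the largest excess in both somatic libraries. In male germ cells it was level with Pcdhgb4, at 8.06 SPM (7.02 to 9.22) and 8.05 SPM (7.01 to 9.21).

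In female germ cells the first gamma members had the largest excess instead. Pcdhga1, the first of the cluster, stood at 59.3 and 14.8 SPM in germ cells and at 137 and 117 SPM in somatic cells. Its excess of 7.28 SPM was the highest of the female germ library and exceeded its own excess of 1.65 SPM in male germ cells and of 2.43 and 1.59 SPM in somatic cells. Pcdhga2 followed in female germ cells with an excess of 5.08 SPM, beside 1.03 SPM in male germ cells. Pcdhga8 and Pcdhgb5 were the lowest gamma members of that library, at 7.56 SPM each.

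**Figure D4:**
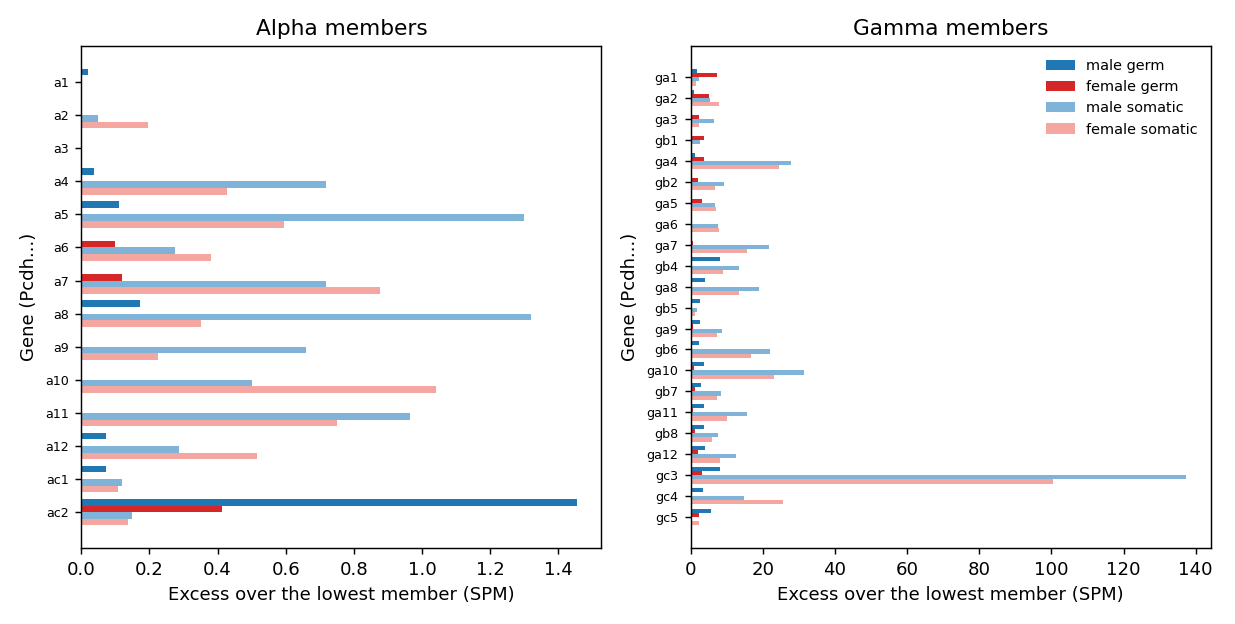
Excess of each alpha member (left) and gamma member (right) over the lowest member of its cluster in the same library, in SPM (horizontal axis), with 1 bar per library and genes in chromosomal order from top to bottom. Pcdhgc3 reaches 137 and 100.5 SPM in the somatic libraries, Pcdhga1 leads in female germ cells at 7.28 SPM, and Pcdhac2 leads the alpha members in male germ cells at 1.45 SPM.

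Male and female germ cells differed across the whole gamma cluster. All 22 members were higher in male germ cells, at ratios of 3.99 (Pcdhga1, 3.49 to 4.59) to 8.17 (Pcdhgb4, 6.88 to 9.85), and 21 passed the 4-fold rule, Pcdhga1 being the exception, against 18.6% of all genes. Their median log2 difference was 2.74, beside 0.73 for alpha, 0.13 for beta and 0.09 for all genes. In somatic cells all 22 ratios of male to female lay between 1.06 (Pcdhgc4) and 1.26 (Pcdhgc3), and none passed the rule. Germ cells were lower than somatic cells at 4-fold or more for Pcdhgc3 alone in males, against 17.9% of all genes, and for all 22 members in females, against 24.8%. Since the members share exons, these counts describe the common level of the cluster more than its members.

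Both somatic libraries stood above both germ libraries for all 22 gamma members, against 29.0% of all genes. In limma's test of germ against somatic cells none passed, and 19 had an unadjusted p under 0.05, as did 31.4% of all genes tested. The spread within a cell type in this test is that between its male and female library. For gamma members these differed 3.99- to 8.17-fold in germ cells. Pcdhgc3 came nearest, with a log2 difference, germ minus somatic, of -3.16 ± 0.90 (SE; 2 libraries a side; limma adjusted p = 0.0863), and the other adjusted p-values reached 0.166. A fit with sex as a term leaves 1 residual degree of freedom. In it all 22 gamma members passed (limma adjusted p from 0.00146 to 0.0325), against 13.8% of all genes that fell. In the same fit 17 beta members passed. They were tested only through their somatic levels, so that count gives no support of its own. The number of gamma members passing also changed with the library left out, as it did over all genes.

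Neighbouring genes were read in the same libraries. Taf7, which encodes a subunit of the general transcription factor TFIID and lies on the minus strand between beta and gamma (37800144 to 37803858), stood at 652 and 138 SPM in germ cells and at 41.7 and 53.8 SPM in somatic cells. Slc25a2, a mitochondrial carrier gene beside it, stood at 0.695 and 1.07 SPM in germ cells and at 2.00 and 1.51 SPM in somatic cells. Zmat2, on the alpha side of the clusters, was nearly level at 40.4 to 43.7 SPM. A row named Pcdha4-g, which runs from within the alpha cluster to the end of the gamma cluster and is no member by the rule, stood at 11.5 and 1.44 SPM in germ cells and at 29.1 and 22.9 SPM in somatic cells, the same order of libraries as the gamma members. The sources used here do not say whether the counting used strand.

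Among 23 regulators of the clusters (CTCF, cohesin subunits and their loaders and releasers, and DNA and histone methylation enzymes), 2 rose in germ cells under limma and none fell, against 2.50% and 5.56% of all genes. These were the meiotic cohesin genes Stag3, at 883 and 2536 SPM in germ cells and 20.7 and 17.6 SPM in somatic cells (log2 difference 6.26 ± 0.60, adjusted p = 0.0328), and Rad21l, at 46.1 and 383 SPM against 0.453 and 0.720 SPM (6.95 ± 1.13, adjusted p = 0.0374). Rad21l entered the test only through its germ levels and so had to differ. With sex as a term 7 rose, against 7.73% of all genes. The others were Smc1b, Smc3, Rec8, Dnmt3l and Ctcfl (tested, like Rad21l, only through its germ levels). The sexes were not alike for Dnmt3l and Rec8. Dnmt3l stood at 425 and 0.187 SPM in germ cells and at 4.10 and 0 SPM in somatic cells. Rec8 stood at 24.7 and 79.8 SPM in germ cells and at 0.384 and 48.5 SPM in somatic cells. Ctcf stood at 47.5 and 68.4 SPM in germ cells and at 100.4 and 99.4 SPM in somatic cells, a difference that did not pass. Smchd1, whose protein takes part in silencing of the clusters, stood at 470 and 414 SPM in the germ libraries and 188 and 162 SPM in the somatic libraries and did not pass either. Dnmt3b, the DNA methyltransferase gene linked to promoter choice in neurons, stood at 35.7 and 11.8 SPM in germ cells and at 17.4 and 23.3 SPM in somatic cells. Dnmt3a, which encodes the other de novo methyltransferase, stood at 516 and 52.2 SPM in germ cells and at 494 and 538 SPM in somatic cells, so female germ cells were the low library.

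Of 15 genes for binding, cleavage and signalling partners of the proteins, 1 fell in germ cells and 0 rose, which is near the shares of all genes (5.56% and 2.50%). This was Cyfip1, a subunit gene of the WAVE actin regulator, at 38.5 and 59.7 SPM in germ cells and 206 and 211 SPM in somatic cells (log2 difference -2.11 ± 0.42, limma adjusted p = 0.0485). Of the 12 non-clustered protocadherins found, 11 were tested, 4 fell in germ cells and 0 rose, against the same shares. Pcdh18 stood at 5.80 and 7.37 SPM in germ cells and at 566 and 703 SPM in somatic cells (-6.49 ± 0.42, limma adjusted p = 0.0328), and Pcdh7, Pcdh9 and Pcdh11x also passed, Pcdh11x having entered the test only through its somatic levels. Not all followed this order: Pcdh17 was highest in female germ cells, at 50.4 SPM, against 0.0731 SPM in male germ cells and 6.59 and 6.51 SPM in somatic cells. Of 10 classic cadherin and catenin genes, 2 fell and 0 rose, against the same shares. These were Cdh11 at -6.01 ± 0.70 (limma adjusted p = 0.0328) and Ctnnd1 at -2.22 ± 0.45 (limma adjusted p = 0.0498). With sex as a term the counts that fell were 3 partners (1, Nlgn1, tested only through its somatic levels), 5 non-clustered protocadherins and 4 classic cadherins and catenins, against 13.8% of all genes, and Cdh1 rose.

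Markers of neurons and glia were also measured, since clustered protocadherins are best known there. The 12 markers summed to 35.5 and 27.1 SPM in germ cells and to 43.7 and 42.0 SPM in somatic cells. Above the floor were 11 and 8 of them in germ cells and 8 in each somatic library. Snap25, a synaptic vesicle fusion gene, stood at 0.118 and 0 SPM in somatic cells, under the floor in both. Of the 5 markers tested by limma none passed, and 2 had an unadjusted p under 0.05, while Syt1 fell with sex as a term. Markers of other cell types were read as well. Red blood cell markers (Hbb-b1, Hba-a1 and Alas2) summed to 30039 and 11075 SPM in somatic cells, against 289 and 92.4 SPM in germ cells. Endothelial markers summed to 168 and 241 against 50.6 and 27.8 SPM, of which Kdr and Cdh5 were higher in somatic cells. Pecam1 stood at 15.9 and 17.3 SPM in germ cells and 14.0 and 14.9 SPM in somatic cells, and Tek at 18.8 and 6.02 against 15.0 and 15.8 SPM. Leukocyte markers summed to 28.6 and 10.8 against 1.92 and 1.63 SPM. Their part in the somatic protocadherin levels was not tested.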

How the data were processed

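Gene-level signal in 4 total RNA libraries (ribosomal RNA depleted, paired-end) was analysed, 1 library per group. Per the submitters' processing notes, TopHat 1.2.0, CASAVA 1.9 and edgeR were used with mm9, in roles that are not stated. Counting program, annotation and strand use are not stated in the sources used here. Deposited signal is named counts per the file headers. Its low values cluster at a spacing of 4.105, 6.07, 6.12 and 4.105 (germ male, germ female, somatic male, somatic female). It was therefore read as fragments multiplied by a library factor and rounded, and value divided by spacing estimates fragments. Between 43.2% and 54.2% of low values lay on the spacing (15.0% to 23.3% by chance), so fragment numbers are estimates. PCR copies cannot be told from separate molecules, and intervals and floors cover counting error only.

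Repeated rows (74) were removed. Signals were divided by library totals times trimmed-mean factors of 1.07, 0.956, 0.945 and 1.03. The plan assumed raw counts, which these values are not, so limma 3.58.1 (R 4.3.3; mean-variance trend; Benjamini-Hochberg; threshold 0.05) was run on log2(SPM + 0.5) over 14148 genes that reached 1 SPM in 2 or more libraries, a scale that understates differences of low genes. Germ against somatic took the sexes as samples. Single-library ratios carry exact conditional binomial 95% intervals, and in them a library listed at 0 was set at the floor of 3 fragments. In the 4-fold calls any library under 3 fragments was set at that floor. Shared 100-base words came from GENCODE M21 transcripts (GRCm38) and coordinates from the files (mm9). The limma step was tested on simulated data.

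The members and gene lists were chosen with earlier results of these data known, and 2 listed marker genes are not reported here. Named members were the highest per length in each library, the 3 largest differences per direction and comparison, C-type members and those passing limma. Other scalings, pseudocounts, filters, fold limits and left-out libraries were tried.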

Additional observations from a re-analysis of the deposited data

Results flagged for a closer look

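For Pcdhb3 and Pcdhb21 the male and female libraries stood in opposite orders in germ and somatic cells. Other beta members did so too, among them Pcdhb22, at 0.137 and 0.414 SPM in germ cells and 22.4 and 18.3 SPM in somatic cells. Pcdhb3 was at least 2.60-fold higher in male than in female germ cells, on an estimated 12.4 male fragments against 0, while its ratio of male to female somatic cells was 0.672 (95% interval 0.451 to 0.996). Pcdhb21 had a ratio of male to female of 0.122 (0.0134 to 0.589) in germ cells, on an estimated 1.95 and 10.1 fragments, and of 1.66 (1.38 to 2.00) in somatic cells. With 1 library per group, none of these differences between the cell types was tested.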

How the results depend on the processing

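No member reversed its germ against somatic direction under any alternative in which it was tested. The 1140 genes passing limma between germ and somatic cells became 0 with no filter on low values, where 18703 genes were tested. There 4625 genes had an unadjusted p under 0.05, and of the beta members 0 passed and 21 did so unadjusted. A fit with sex as a term leaves 1 residual degree of freedom. Whether both cell types of a sex came from the same animals is not stated. In that fit 3049 genes passed (gamma 22, and beta 17, tested only through their somatic levels). With 1 library left out in turn, the lone library being assumed to vary like the others, the count ran from 349 to 4262, beta from 0 to 14 and gamma from 0 to 22. The 19 genes of the shared sex difference became 0 with library totals, 0 with upper-quartile scaling and 9 with no filter. Among size calls, a minimum of 5 SPM gave 0 beta members between germ libraries, and between germ and somatic cells 11 beta and 1 alpha or gamma member in males and 9 beta members in females. At 2-fold, 3 beta and 4 alpha or gamma members were called between somatic libraries and 30 alpha or gamma members between male germ and somatic cells. The 6 alpha or gamma members called there at 4-fold became 2 with library totals and 1 with upper-quartile scaling. At 10 fragments or more, 30 members were detected in male germ cells. The beta sum without its highest member was 3.03 SPM in male germ cells and 163 and 127 SPM in somatic cells (male, female). The somatic beta sums were 179.6 and 153 SPM with library totals, and 177.5 and 141 with upper-quartile scaling. Summed as excess over the lowest member, an alternative added after seeing the data, alpha gave 1.94, 0.631, 7.06 and 5.59 SPM (germ male and female, somatic male and female) and gamma 59.99, 40.7, 383 and 304 SPM. Except where values or numbers tested are given, the cause was not tested. The germ beta values rest on few fragments.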
